A study of Homo sapiens with 36 samples.

Results

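The clustered histone genes were taken from the deposited table as the protein-coding genes with a current histone symbol: H1-1 to H1-6, and every gene named H2AC, H2BC, H3C or H4C with a number. The rule uses names only and no expression value. It gave 66 genes of 60662 gene IDs, 19957 of which are protein-coding. The H1 class had 6 members, H2A 16, H2B 17, H3 13 and H4 14. The table places 11 of the members on chromosome 1 and the others on chromosome 6.

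RNA was measured in A549, an established human lung adenocarcinoma line that grows with epithelial markers. Cells received siRNA at 100 nM against ATF4 (siATF4), against ATF6 (siATF6) or a non-targeting siRNA (siControl), and each transfected culture was divided over wells the next day. Wells were then kept without glucose (0 mM) or with 25 mM glucose for 6 or 16 h, both with dialysed serum and 2 mM glutamine. The 12 groups of 3 biological replicates, 36 libraries in all, were made from poly(A)-enriched RNA without strand information. All groups carry an siRNA, all come from 1 cell line, and an siRNA lowers its target without removing it. ATF4 averaged 164 ± 15.8 CPM (counts scaled to a library total of 1000000; SD, n = 3) in siATF4 and 449 ± 26.8 CPM in siControl cells without glucose at 16 h. ATF6 averaged 14.2 ± 4.83 CPM in siATF6 and 88.9 ± 2.66 CPM in siControl cells of the same condition. With 25 mM glucose at 16 h ATF4 differed less, at 132 ± 8.35 CPM in siATF4 and 166 ± 21.1 CPM in siControl cells. ATF6 there averaged 9.08 ± 1.34 CPM in siATF6 and 48.0 ± 0.74 CPM in siControl cells.

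Histones are the proteins around which DNA is wrapped. H2A, H2B, H3 and H4 form the nucleosome core, and H1 binds the DNA between cores. The clustered genes are the replication-dependent ones: most of their mRNA is made in S phase and ends in a short stem-loop, bound by SLBP and cut by the U7 snRNP with CPSF3, without a poly(A) tail. Some of these genes also hold a poly(A) signal downstream of the stem-loop and give polyadenylated transcripts when the stem-loop end is not used. In a poly(A)-enriched library mainly that second kind is expected to be read, and the share of tail-less histone mRNA among the counts below was not measured.

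Among the GENCODE 29 transcripts of the members (GRCh38; 64 of 66 members found, 63 with the span given in the deposited table), 28 members have a model with the 16-base stem-loop, in 6 spellings. These sequences are shown because they mark where the tail-less end of each mRNA lies; lower case marks the 6-base stem arms and capitals the 4-base loop.
H2AC6 and 14 other members of H2A, H2B and H3, here chr6:26124669-26124684, plus strand: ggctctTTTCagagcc
H2BC5, with H2BC4, H2BC7 and H3C8, chr6:26158587-26158602, plus strand: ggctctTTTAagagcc
H3C6, chr6:26225596-26225611, plus strand: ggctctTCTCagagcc
H2AC11, chr6:27133515-27133530, plus strand: ggctctTTTCagggcc
H4C8, with H4C2, H4C5 and H4C11, chr6:26285131-26285146, minus strand: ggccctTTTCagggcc
H4C14, with H4C15 and H4C9, chr1:149833032-149833047, plus strand: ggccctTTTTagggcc
The stem of the 7 H4 genes differed from that of the H2A, H2B and H3 genes, and H2AC11 carried 1 arm of each kind. In the longest models of H2AC6, H4C14, H4C15, H4C8 and H3C6 the transcript ran on past the stem-loop for 1128, 1167, 1314, 1655 and 1862 bases. H2BC5 has a 496-base model that ends 39 bases after the stem-loop and a longer, spliced model of 789 bases without the stem-loop.

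The promoters of members that moved without glucose at 16 h (below) are shown for the 100 bases before a RefSeq start (GRCh38.p14, read along the gene's strand). H3C6 has another RefSeq start upstream, whose window, chr6:26224078-26224177, is not shown. Capitals mark the motifs searched on both strands: TATAAA, then CCAAT, which reads ATTGG on the other strand, and the octamer ATTTGCAT known from H2A and H2B promoters.
H4C14, chr1:149832557-149832656, plus strand: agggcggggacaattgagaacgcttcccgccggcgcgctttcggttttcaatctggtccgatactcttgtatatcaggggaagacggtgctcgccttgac
H4C8, chr6:26285535-26285634, minus strand: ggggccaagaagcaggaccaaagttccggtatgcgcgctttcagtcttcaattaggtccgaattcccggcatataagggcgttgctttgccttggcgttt
H3C6, chr6:26225035-26225134, plus strand: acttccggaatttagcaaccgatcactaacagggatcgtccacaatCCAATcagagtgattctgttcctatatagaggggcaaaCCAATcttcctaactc
H2BC15, chr6:27838469-27838568, plus strand: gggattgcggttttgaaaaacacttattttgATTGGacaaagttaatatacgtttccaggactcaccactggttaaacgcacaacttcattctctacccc
H2AC6, chr6:26124072-26124171, plus strand: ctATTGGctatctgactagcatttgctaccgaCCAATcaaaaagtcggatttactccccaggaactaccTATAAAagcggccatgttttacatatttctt
H2BC11, chr6:27132796-27132895, minus strand: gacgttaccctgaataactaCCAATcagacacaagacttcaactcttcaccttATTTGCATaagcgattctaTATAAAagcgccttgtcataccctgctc
Over the 250 bases before the start, 65 windows of 61 members could be searched, and genes with several starts count once per start. The octamer stood in 15 of 19 H2B windows and 11 of 15 H2A windows, in 1 of 13 H3 windows and in no H4 or H1 window, against 1.63% of all 35116 promoters. TATAAA stood in 67.7% of members' windows and 10.7% of all promoters, and CCAAT in 86.2% and 32.0%. CCAAT was in every H1, H2A, H2B and H3 window but in 3 of 12 H4 windows. The H3 window with the octamer belongs to a second start of H3C4 and has the same coordinates as the H2AC7 window, so it is counted in both classes. A match is a spelling in the sequence and not a shown binding site.

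The 35 libraries used held 39.4 to 78.7 M counts. The library of siATF4 without glucose at 6 h, replicate 3, held 2.87 M and was left out. Its best correlation with another library was -0.31, against 0.977 or more for each of the 35. The value of 0.977 belongs to siATF4 without glucose at 16 h, replicate 3, and all others of the 35 were at 0.994 or more. That library also had the lowest TMM scaling factor, 0.796. It was kept, and its H1 sum was 14.2 CPM, against 6.32 and 7.78 CPM in replicates 1 and 2 of its group. The epithelial markers fixed for A549 summed to between 9035 and 22091 CPM in the 35 libraries. Their levels were uneven: ALDH1A1 and KRT7 averaged 4710 and 3840 CPM, while CDH1 averaged 17.5 and EPCAM 4.32 CPM. Of the markers of leukocytes, endothelium and fibroblasts, PTPRC, PECAM1 and DCN averaged below 0.05 CPM, while CD68 averaged 40.6 and COL1A1 14.9 CPM. At 6 h, replicate 2 went against its labels in 2 of the siRNAs for TXNIP, an arrestin-domain gene known to be induced by glucose. TXNIP stood at 0.0153, 0.812 and 0.0682 CPM in siATF6 cells without glucose and at 0.876, 0.0536 and 0.541 CPM with glucose, replicates 1 to 3. In siControl cells it stood at 0.0308, 0.195 and 0.0488 CPM without and 0.537, 0.0508 and 0.146 CPM with glucose. Results at 6 h are therefore given with and without replicate 2, and no library was moved. These TXNIP values rest on few counts. For ARRDC4 at 6 h, replicate 2 had 1.78 CPM without and 1.09 CPM with glucose in siATF6 cells. In siControl cells that replicate had 2.56 and 2.46 CPM, nearly the same. At 16 h TXNIP in siControl cells also went against the labels in replicate 3, at 0.122 CPM without and 0.0488 CPM with glucose. That replicate was kept in the main fits.

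Of the 66 members, 33 were detected, meaning at least 10 counts in at least 3 of the 35 libraries. They comprised 2 of 6 H1 genes, 7 of 16 H2A, 11 of 17 H2B, 7 of 13 H3 and 6 of 14 H4 genes. At least 1 count in 3 libraries was reached by 59 members and at least 100 counts by 16. In all 35 libraries 17 members had 10 counts or more, and H1-1, H2AC1, H4C6 and H4C7 were at 0 in all of them. Together the members took 64.6 to 142 CPM of a library, on average 92.8 CPM, of which H2A made 29.8, H2B 22.2, H4 21.6, H1 11.2 and H3 8.06 CPM.

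A few genes carried each class. H2AC6 averaged 16.8 CPM over the 35 libraries and made 56.4% of the H2A sum, with H2AC18 at 8.52 CPM. H1-2 averaged 10.8 CPM, which was 96.4% of the H1 sum, and the next H1 gene, H1-4, averaged 0.295 CPM. H4C14 averaged 11.7 and H4C15 6.19 CPM, H2BC12 6.10 and H2BC5 5.53 CPM, and H3C6 3.52 and H3C10 1.49 CPM. Per kilobase of the deposited gene length the order changed: H4C14 came to 18.7, H1-2 to 16.8, H2BC12 to 16.0, H2AC18 to 15.5 and H2AC6 to 10.3 CPM per kb, while H3C6 came to 1.62.

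Detection went with the annotated 3′ end. All 22 members with AATAAA or ATTAAA in the last 45 bases of an annotated transcript were detected and they held 78.5% of the members' CPM, while 10 of the 42 members without such a model were detected and held 21.1%. A stem-loop model was present in 28 members, 25 of them detected, and absent in 36, 7 of them detected. The median gene length in the table was 754 bases in detected and 396 bases in undetected members. Of the undetected members 29 of 33 had a length that is a multiple of 3, against 7 of 33 detected ones, as in a model of coding length only. The effective length, over which a paired fragment can start, had a median of 471 bases in detected and 114 bases in undetected members. These features move together, and the part each has in detection was not tested. H1-2 and H2BC12 were abundant without an annotated poly(A) signal.

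**Figure D1:**
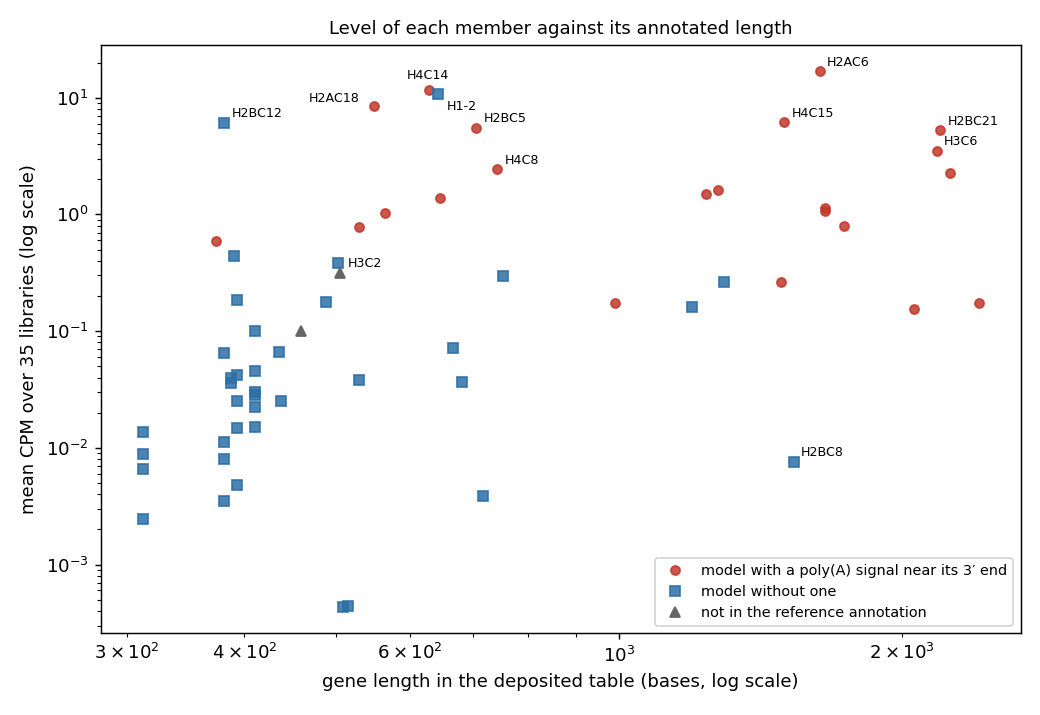
Mean CPM over 35 libraries (log scale) of each member above 0 against its gene length in the deposited table (bases, log scale); circles are members with a poly(A) signal in the last 45 bases of an annotated transcript, squares those without, triangles 2 members absent from the annotation. No circle lies below 0.155 CPM, and most squares do, with H2BC12 and H1-2 high among them.

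Some members cannot be read apart. By shared 31-base words or overlapping exons, 23 members, 15 of them detected, were counted as uncertain. H4C14 (chr1:149832659-149839767) and H4C15 (chr1:149854045-149861210) share nearly all their sequence, as do H2AC18 with H2AC19 and H3C14 with H3C15, and H3C14 and H3C15 overlap the H4 genes on the opposite strand over 10.4% of their bases. H2BC12 shares 86.3% of its words with other genes, the closest being H2BC15. The 2 H4 copies are therefore also given as a sum, which was chosen after seeing the data.

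At 16 h summed H4 RNA was higher in every library without glucose than in every library with glucose, in each siRNA. No other class was apart in this direction in all 3 siRNAs. Summed H4 RNA was 34.1, 28.9 and 28.2 CPM without glucose against 14.97, 13.0 and 13.5 CPM with glucose in siATF4 cells. In siATF6 cells it was 37.1, 40.4 and 44.7 CPM without against 19.3, 15.1 and 16.9 CPM with glucose. In siControl cells it was 26.0, 28.4 and 23.8 CPM without against 15.5, 15.03 and 14.3 CPM with glucose. The groups did not overlap in any siRNA, and the ratios of the means were 2.20, 2.38 and 1.74 in siATF4, siATF6 and siControl. Without the uncertain members, which include H4C14 and H4C15, the log2 ratio of the H4 sums was 0.13 in siATF4, 0.82 in siATF6 and 0.95 in siControl cells, against 1.13, 1.25 and 0.80 with them. The H4 difference in siATF4 cells thus lay mostly in H4C14 and H4C15. H4C14, H4C15 and H4C8 made 54.3%, 28.6% and 11.3% of the H4 sum over the 35 libraries, so it says little of the other H4 genes. H4C5 went the other way in siATF4 cells, with 4, 4 and 6 counts without and 17, 11 and 9 with glucose. These class sums are descriptions without a test.

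With all members in the sums, the other classes differed less. Without the uncertain members, H2A, H2B and H3 differed more than H4 in siATF4 cells. In siATF6 cells H2A then differed about as much as H4. H2A averaged 42.3 ± 3.40 CPM without and 29.4 ± 3.56 CPM with glucose in siATF6 cells (SD, n = 3 each), without overlap, while in siATF4 and siControl cells its groups overlapped. H1 averaged 7.75 ± 0.31 CPM without and 10.0 ± 0.81 CPM with glucose in siControl cells, without overlap, and its groups overlapped in the other siRNAs. H2B averaged 14.8 ± 1.00 CPM without and 18.4 ± 2.15 CPM with glucose in siATF4 cells. It averaged 25.9 and 26.8 CPM in siATF6 and 23.3 and 26.2 CPM in siControl cells, 0 mM before 25 mM, with overlap in both. H3 averaged 6.98 and 6.202 CPM in siATF4, 10.8 and 8.22 CPM in siATF6 and 9.32 and 7.72 CPM in siControl cells, in the same order, and overlapped in siControl cells only.

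**Figure D2:**
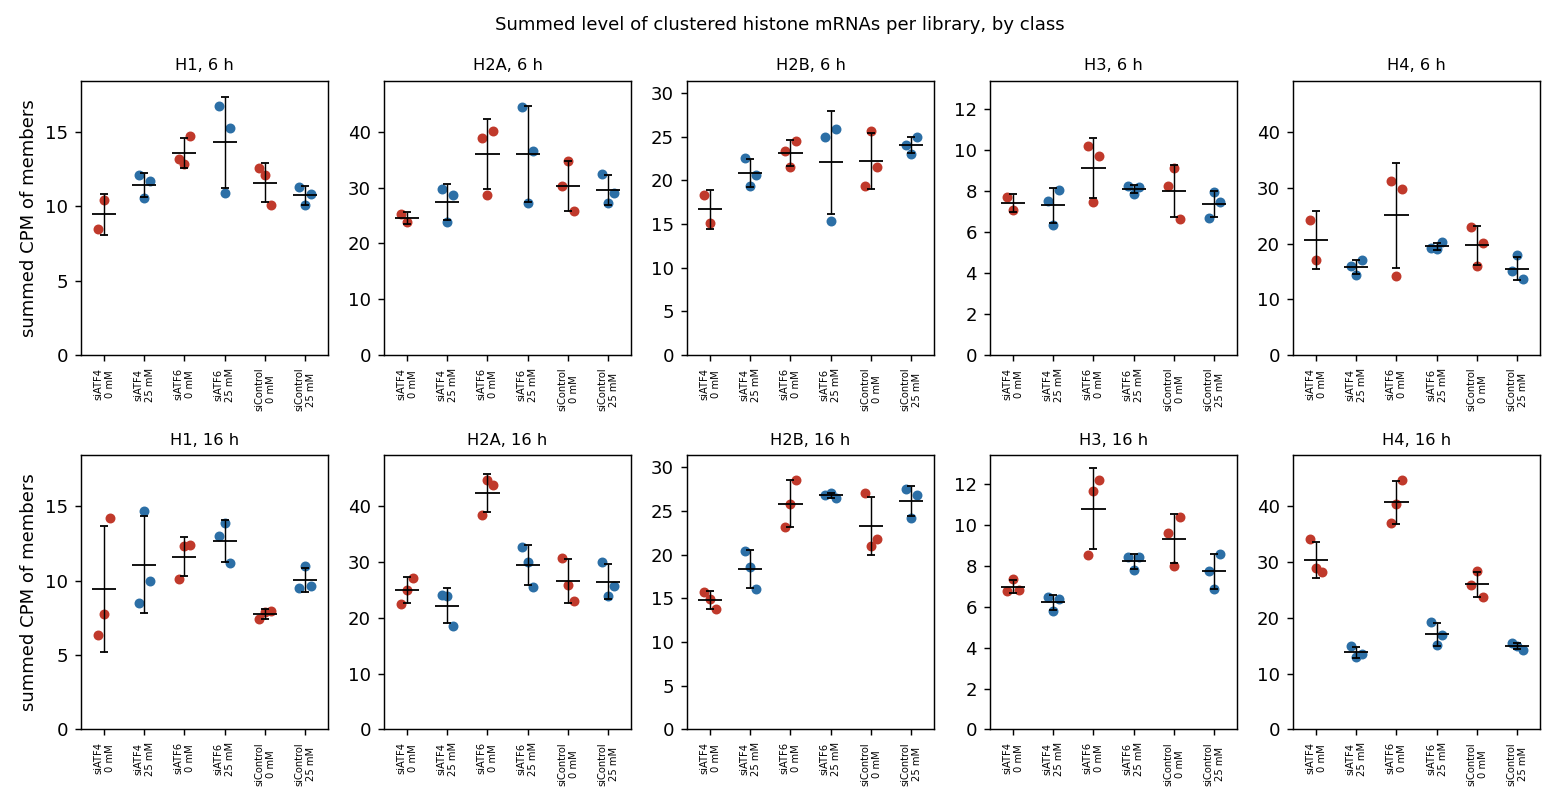
Summed CPM of the members of each histone class in every library, at 6 h (top) and 16 h (bottom); red is 0 mM and blue 25 mM glucose, lines are means and bars 1 SD (n = 3, and n = 2 for siATF4 without glucose at 6 h). At 16 h the red H4 points, from 23.8 CPM up, lie above all blue ones in each siRNA, and H2A is highest in siATF6 cells without glucose.

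Single members were then tested. The adjusted p-values below are from edgeR's quasi-likelihood test with Benjamini-Hochberg adjustment over all 18013 genes tested at 16 h, of which 32 were members. Without glucose in siATF4 cells 6 members rose and 1 fell, against a background of 29.1% of all genes called (14.9% higher, 14.2% lower). In siATF6 cells 6 rose and 2 fell, against 33.5% (15.6% higher, 17.9% lower). In siControl cells 5 rose and 1 fell, against 29% (14.6% higher, 14.5% lower). The share of members called, 6 to 8 of 32, was below the background in each siRNA, and the members' median log2 fold changes were -0.00, 0.15 and 0.11 in siATF4, siATF6 and siControl, against -0.01, -0.03 and 0.01 over all genes. H4C14, H4C8, H3C6, H2BC15 and H2AC6 rose in all 3 siRNAs. The share of all genes that rose in all 3 was not counted, so this number has no background beside it. Called members were picked by this test on the same libraries. Where their libraries are described below as apart, this is thus no further support. The share of all genes apart in this way was not counted.

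H4C14, which encodes the H4 core histone like every H4 gene, had 19.4, 18.5 and 8.58 CPM without glucose against 6.84, 5.07 and 7.60 CPM with glucose in siATF4 cells. Its values were 23.9, 21.1 and 24.9 against 11.6, 7.19 and 8.55 CPM in siATF6 cells, and 14.1, 11.4 and 13.4 against 7.30, 5.44 and 5.22 CPM in siControl cells. Every library without glucose was above those with glucose. The log2 fold change was 1.44 ± 0.23 (SE; adjusted p = 0.000317) in siATF4, 1.48 ± 0.23 (adjusted p = 0.000136) in siATF6 and 1.22 ± 0.23 (adjusted p = 0.000895) in siControl cells.

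H4C15, its near-identical copy, had 12.0, 7.15 and 15.9 CPM without and 5.00, 5.07 and 2.86 CPM with glucose in siATF4 cells. It had 7.36, 13.6 and 13.9 against 3.36, 4.88 and 4.89 CPM in siATF6 cells, and 6.25, 11.9 and 5.46 against 5.38, 6.86 and 6.05 CPM in siControl cells. The first 2 sets did not overlap and the siControl set did. H4C15 rose by 1.68 ± 0.38 on the log2 scale in siATF4 (adjusted p = 0.00385) and 1.54 ± 0.38 in siATF6 cells (adjusted p = 0.00491), and was at 0.48 ± 0.37 in siControl cells (adjusted p = 0.365).

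The split of reads between the copies varied from library to library, and their sum varied less. H4C14 and H4C15 together had 31.4, 25.6 and 24.5 CPM without against 11.8, 10.1 and 10.5 CPM with glucose in siATF4 cells. In siATF6 cells the sum was 31.3, 34.7 and 38.9 against 15.01, 12.1 and 13.4 CPM, and in siControl cells 20.3, 23.3 and 18.8 against 12.7, 12.3 and 11.3 CPM. All 3 sets were apart. With the copies summed before the fit, the log2 fold change was 1.54 ± 0.13 in siATF4 (adjusted p = 5.95e-07), 1.499 ± 0.13 in siATF6 (adjusted p = 3.78e-07) and 0.90 ± 0.13 in siControl cells (adjusted p = 6.80e-05).

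H4C8 is an H4 gene on chromosome 6 (chr6:26277609-26285638) with little sequence shared with other genes. It had 2.04, 2.38 and 2.41 CPM without against 2.04, 1.14 and 1.79 CPM with glucose in siATF4 cells. It had 4.58, 4.78 and 4.60 against 2.82, 1.62 and 2.13 CPM in siATF6 cells, and 4.52, 3.54 and 3.39 against 1.93, 1.58 and 1.54 CPM in siControl cells. The siATF6 and siControl sets were apart, and the siATF4 sets overlapped by a margin smaller than the digits given. The log2 fold changes were 0.68 ± 0.24, 1.21 ± 0.23 and 1.29 ± 0.24 in that order of siRNA, with adjusted p = 0.0408, 0.000822 and 0.000656. The call in siATF4 cells was lost on leaving out any of 10 single libraries, 4 of them of siATF4, with an adjusted p of up to 0.144.

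H3C6 (chr6:26224199-26227473), an H3 core histone gene, had 3.47, 3.72 and 2.99 CPM without against 2.21, 2.30 and 2.71 CPM with glucose in siATF4 cells. It had 5.03, 6.15 and 6.56 against 2.65, 3.26 and 2.74 CPM in siATF6 cells, and 5.63, 5.01 and 6.38 against 2.69, 2.52 and 3.24 CPM in siControl cells. The sets were apart in all siRNAs. The log2 fold changes were 0.70 ± 0.17, 1.17 ± 0.16 and 1.12 ± 0.16, with adjusted p = 0.00515, 5.28e-05 and 9.76e-05.

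H2BC15 (chr6:27837760-27865798), an H2B core histone gene whose long models overlap H2A genes over 7.25% of their bases, had 2.08, 1.56 and 1.61 CPM without against 1.04, 0.921 and 0.929 CPM with glucose in siATF4 cells. It had 3.55, 3.86 and 4.28 against 1.14, 1.51 and 1.22 CPM in siATF6 cells, and 2.94, 2.47 and 1.97 against 1.19, 0.895 and 1.44 CPM in siControl cells. The sets were apart in all siRNAs. The log2 fold changes were 1.07 ± 0.22, 1.72 ± 0.22 and 1.18 ± 0.22, with adjusted p = 0.0021, 1.94e-05 and 0.000698.

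H2AC6 (chr6:26124145-26139116), the most abundant H2A gene, had 15.3, 16.98 and 16.7 CPM without against 12.7, 11.5 and 9.17 CPM with glucose in siATF4 cells. It had 26.1, 33.5 and 33.4 against 18.3, 16.5 and 13.5 CPM in siATF6 cells, and 16.98, 17.7 and 14.003 against 13.7, 10.2 and 10.9 CPM in siControl cells. The sets were apart in all siRNAs, and the 3 siATF6 libraries without glucose were the highest of the series. The log2 fold changes were 0.77 ± 0.18, 1.07 ± 0.18 and 0.59 ± 0.18, with adjusted p = 0.00406, 0.000204 and 0.0185. The siControl call was lost without replicate 1 or 2 of 0 mM or replicate 2 or 3 of 25 mM, with an adjusted p of up to 0.0838.

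**Figure D3:**
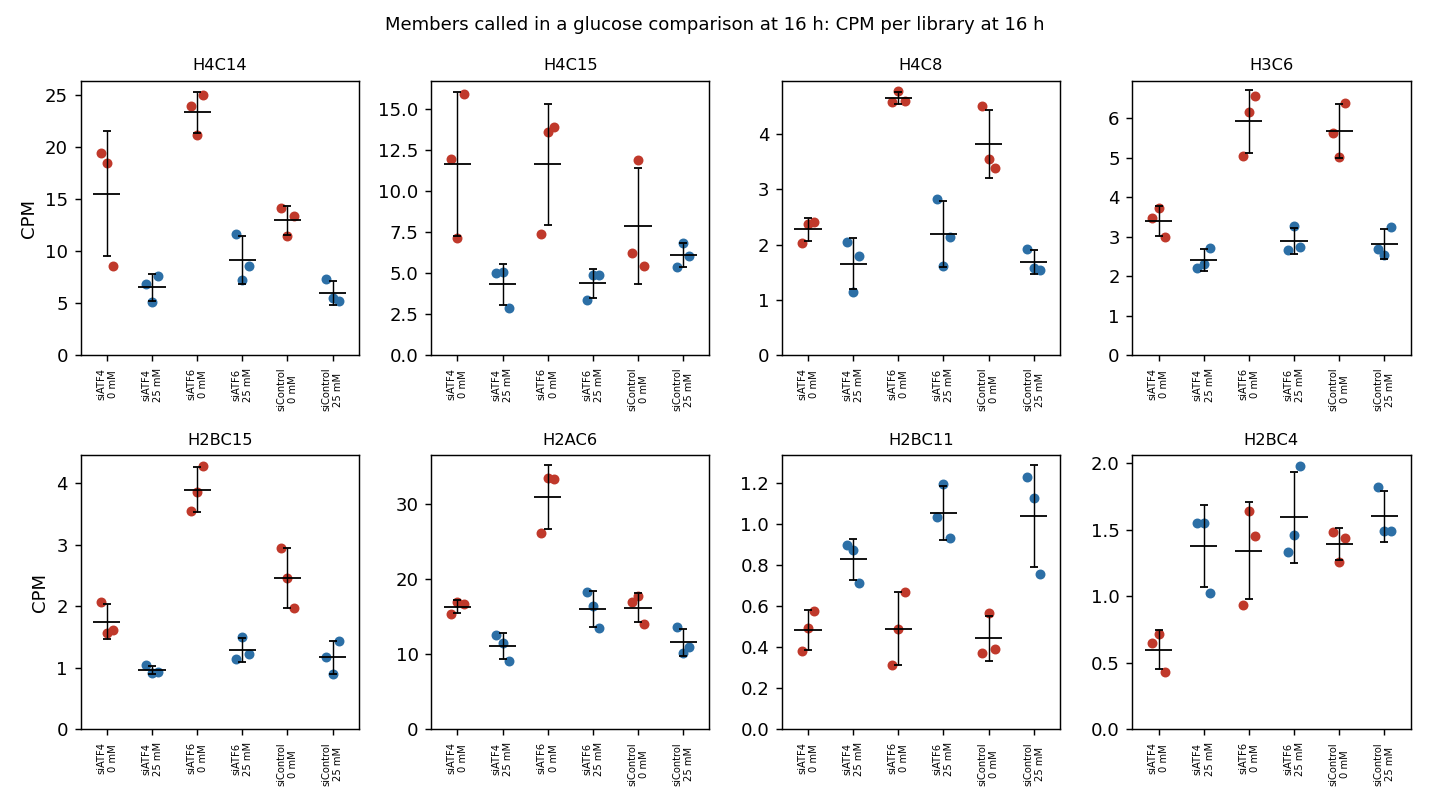
CPM of 8 members in each library at 16 h; red is 0 mM and blue 25 mM glucose, lines are means and bars 1 SD (n = 3). H4C14, H3C6, H2BC15 and H2AC6 have all red points above all blue points in each siRNA, and H2BC11 has them below. The members shown were picked by calls on these same libraries, so this separation is no further support.

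Of the members that fell, all are H2B genes. H2BC11 had 0.312, 0.489 and 0.668 CPM without against 1.03, 1.19 and 0.929 CPM with glucose in siATF6 cells, and 0.370, 0.568 and 0.390 against 1.23, 1.12 and 0.756 CPM in siControl cells. Both sets were apart. The log2 fold changes were -0.96 ± 0.32 (adjusted p = 0.0289) in siATF6 and -1.11 ± 0.32 (adjusted p = 0.0162) in siControl cells. In siATF4 cells the value was -0.55 ± 0.32 (adjusted p = 0.216). The siATF6 call was lost without replicate 1 or 2 of either glucose level, and the siControl call without replicate 1 or 3 of 0 mM or 1 or 2 of 25 mM, with an adjusted p of up to 0.114 and 0.065.

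H2BC4 had 0.646, 0.719 and 0.434 CPM without against 1.55, 1.55 and 1.02 CPM with glucose in siATF4 cells, a log2 fold change of -1.002 ± 0.27 (adjusted p = 0.0103). The sets were apart. In siATF6 and siControl cells the values were -0.11 ± 0.25 and -0.09 ± 0.25, with adjusted p = 0.772 and 0.818. H2BC7 had 0.120, 0.207 and 0.0786 CPM without against 0.237, 0.540 and 0.361 CPM with glucose in siATF6 cells, a log2 fold change of -1.33 ± 0.47 (adjusted p = 0.0395). It never passed 24 counts in a library, and the call was lost on leaving out any of 8 libraries, 4 of them of siATF6, with an adjusted p of up to 0.181. It was also lost without the filter on low counts (adjusted p = 0.109) and with DESeq2 (adjusted p = 0.0713).

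The 6 members that rose all have a spliced model among their annotated transcripts, as do 11 of the 32 members tested. Of the 5 other members with such a model, H2BC4 and H2BC11 fell in some siRNAs, and edgeR called H2BC5, H2BC6 and H2BC18 in none. No member without a spliced model rose, and 1 of 21, H2BC7, fell. This split was set against calls already made and was not tested. H4C14 and H4C15 among the risen are near-identical copies. Some of the 21 had few counts: H4C5, H4C9 and H3C8 never passed 27 in any of the 35 libraries. The abundant members outside the called set did not pass for deprivation at 16 h. H1-2 stood at -0.01 ± 0.29, -0.01 ± 0.29 and -0.27 ± 0.29 in siATF4, siATF6 and siControl cells, with a siControl interval of -0.84 to 0.30. H2BC12 stood at 0.09 ± 0.16, -0.12 ± 0.16 and -0.06 ± 0.16, with a siControl interval of -0.37 to 0.25, and so a change of 1.5-fold lies outside its interval. H2BC5 stood at -0.36, -0.42 and -0.50, below 0 in each, with adjusted p = 0.174, 0.11 and 0.0652, and it passed in siControl cells with the replicate number as a block, at -0.49 (adjusted p = 0.048), and with DESeq2, at -0.50 (adjusted p = 0.034). H2AC18 stood at -0.21, -0.17 and -0.57 with adjusted p = 0.611, 0.69 and 0.148, and H3C10 at 0.56, -0.26 and -0.38 with adjusted p = 0.102, 0.456 and 0.274.

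**Figure D4:**
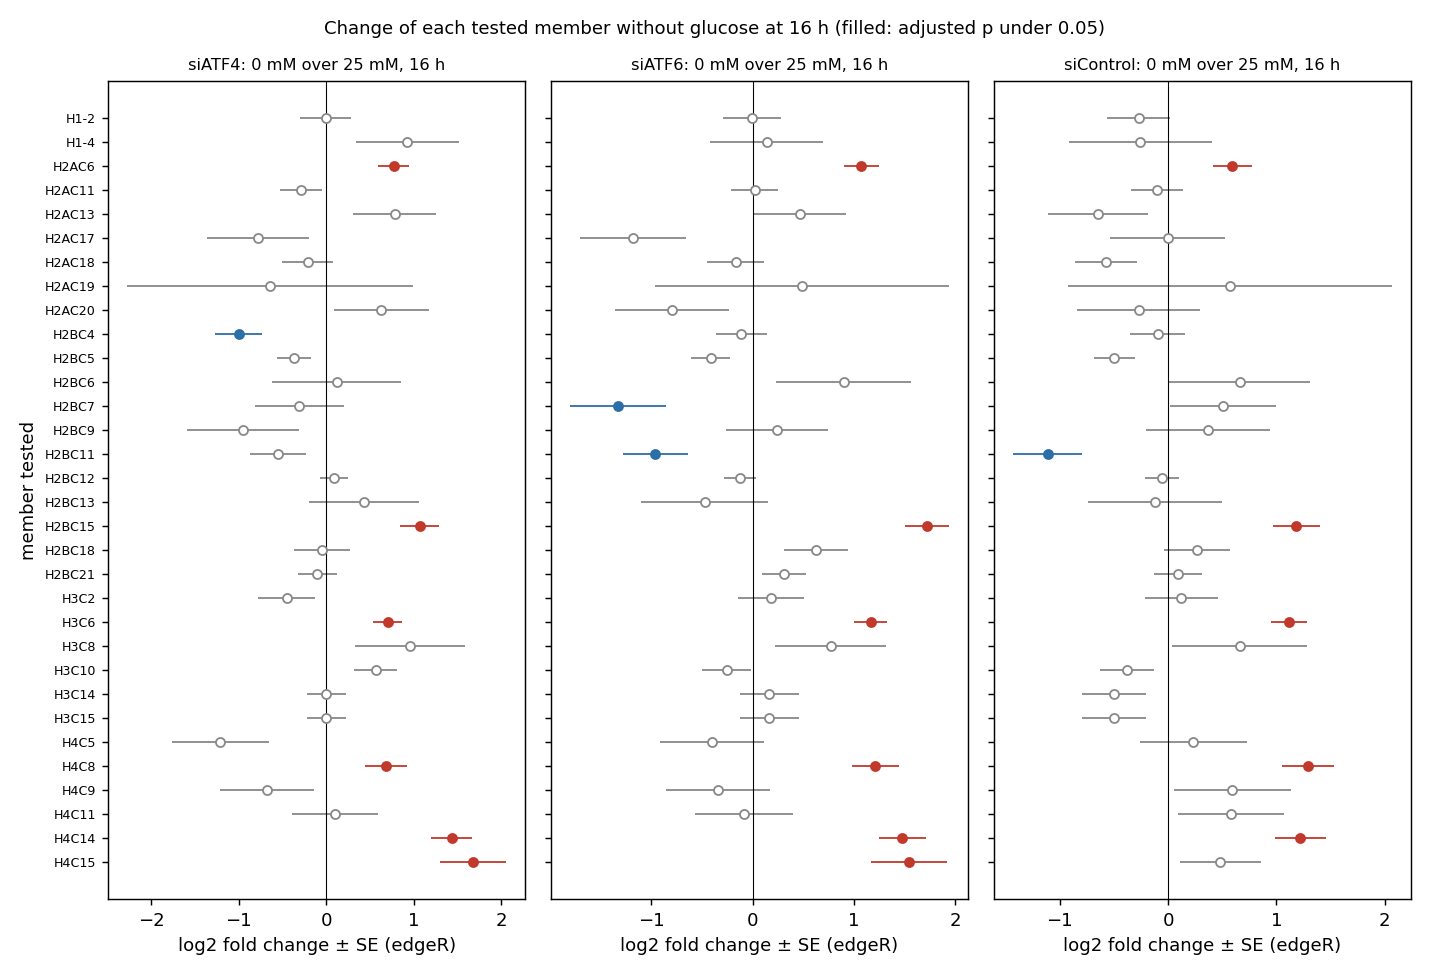
Log2 fold change ± SE of the 32 tested members, 0 mM over 25 mM glucose at 16 h, in siATF4, siATF6 and siControl cells; filled points have an edgeR adjusted p under 0.05, red higher and blue lower. The same 5 genes, H2AC6, H2BC15, H3C6, H4C8 and H4C14, are filled red in each panel, and H4C15 in the first 2.

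Other genes of the histone and S phase programme were tested in the same fits, where 29% to 33.5% of all genes were called. Of 29 S phase genes, 27 fell in siATF4, 27 in siATF6 and 26 in siControl cells without glucose at 16 h and none rose, with a median log2 fold change of -1.83 in siControl cells. Among them MCM3, a subunit of the replicative helicase, fell by 1.95 ± 0.11 (adjusted p = 5.09e-09), and RRM2, a ribonucleotide reductase subunit, fell by 2.04 ± 0.12 (adjusted p = 5.59e-09), both in siControl cells. Of 19 histone chaperone and deposition genes, 11 fell and 2 rose in each siRNA. In siControl cells the CAF-1 subunit CHAF1A fell by 2.37 ± 0.12 (adjusted p = 1.65e-09) and the H3-H4 chaperone ASF1B by 2.84 ± 0.20 (adjusted p = 6.01e-08).

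Of 23 genes of histone mRNA transcription and 3′ processing, 8 fell and 2 rose in siATF4, 9 fell and 1 rose in siATF6, and 8 fell and 1 rose in siControl cells. In siControl cells SLBP, the stem-loop binding protein, fell by 0.77 ± 0.13 (adjusted p = 0.000241), SRRT (ARS2), which links the cap-binding complex to 3′ ends, by 0.98 ± 0.14 (adjusted p = 8.18e-05), and SNRPD3, an Sm protein of the spliceosomal and U7 snRNPs, by 0.79 ± 0.14 (adjusted p = 0.000506). HINFP, a transcription factor of H4 genes, rose by 0.63 ± 0.12 (adjusted p = 0.000701). Of 8 genes of histone mRNA decay, 3 fell in siATF4 and 2 each in siATF6 and siControl cells, and none rose. Of all genes, 14.2%, 17.9% and 14.5% fell in siATF4, siATF6 and siControl cells, and 29.1%, 33.5% and 29% were called in either direction. With 8 genes, no result about the list is drawn. UPF1 fell by 0.66 ± 0.09 in siControl cells (adjusted p = 4.39e-05). Of 11 replacement histone genes tested, 5 fell in siATF4, 6 in siATF6 and 5 in siControl cells. H2AX, the variant phosphorylated at DNA breaks, fell by 1.60 ± 0.24 (adjusted p = 9.72e-05) and H2AZ2, an H2A.Z variant gene, fell by 0.71 ± 0.11 (adjusted p = 0.000122) in siControl cells.

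RNAs without a poly(A) tail were summed as a rough measure of tail-less RNA in the libraries. RN7SL1 and RN7SL2, at 7.01 and 9.74 CPM on average, carried nearly all of this sum. RN7SK averaged 0.441 CPM and the others listed less. Of 18 listed, 5 could be tested and none passed in any 16 h comparison, and their sums overlapped between 0 and 25 mM in siATF4 and siControl cells. In siATF6 cells the sums were apart, from 11.9 to 21.5 CPM without and from 23.6 to 26.3 CPM with glucose. The median log2 fold change of the 5 tested was 1.12, of the opposite sign. RN7SL1 and RN7SL2 were at -0.71 ± 0.35 and -0.57 ± 0.43 there. The rarer RN7SK, RMRP and RPPH1 were at 1.12 ± 0.80, 1.74 ± 1.27 and 1.42 ± 1.31. In siControl cells the sums ran from 13.7 to 20.1 and from 9.46 to 23.5 CPM. Their part in the histone values was not tested. Fewer cells in S phase and less RNA per cell cannot be told apart in these bulk libraries.

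Between siRNAs, 3 H2B and H3 genes were lower with ATF4 knocked down and without glucose at 16 h. Of 32 members 3 fell and none rose in siATF4 against siControl cells, where 12.4% of all genes were called (7.32% higher, 5.09% lower). H2BC4 was at -1.07 ± 0.27 (adjusted p = 0.0201), with 0.646, 0.719 and 0.434 CPM in siATF4 and 1.48, 1.25 and 1.44 CPM in siControl cells. H3C6 was at -0.59 ± 0.16 (adjusted p = 0.0303), with 3.47, 3.72 and 2.99 CPM in siATF4 and 5.63, 5.01 and 6.38 CPM in siControl cells. H2BC12 was at -0.53 ± 0.16 (adjusted p = 0.043), with 4.40, 3.78 and 4.00 CPM in siATF4 and 7.75, 5.48 and 6.33 CPM in siControl cells. All 3 sets were apart.

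These calls rested on single libraries. No member was called on leaving out siATF4 0 mM replicate 3 or siControl 0 mM replicate 1 or 3, and without the filter on low counts only H2BC4 was. The H2BC12 call was also lost without 10 other libraries, with an adjusted p of up to 0.168. With the H4C14 and H4C15 copies summed, the pair rose by 0.53 ± 0.13 (adjusted p = 0.0161), with 31.4, 25.6 and 24.5 CPM in siATF4 against 20.3, 23.3 and 18.8 CPM in siControl cells. The summed H2B class was lower in siATF4 cells at both glucose levels, with 15.7, 14.99 and 13.8 against 27.1, 21.01 and 21.8 CPM in siControl cells at 0 mM, and 20.4, 18.6 and 16.1 against 27.5, 24.2 and 26.8 CPM at 25 mM. At 25 mM ATF4 itself was at -0.28 ± 0.14 (edgeR adjusted p = 0.759), so a lowering of ATF4 mRNA was not shown there. In that comparison edgeR called no member, 3 had an unadjusted p under 0.05, and 0.0444% of all genes were called. DESeq2 called 1, H2BC12, at -0.69 (adjusted p = 0.00965), which edgeR put at -0.67 ± 0.16 (adjusted p = 0.212).

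H2AC6 was higher with ATF6 knocked down. Without glucose at 16 h 2 members rose and none fell in siATF6 against siControl cells, where 4.02% of all genes were called (1.11% higher, 2.91% lower). H2AC6 was at 1.00 ± 0.18 (adjusted p = 0.00484), with 26.1, 33.5 and 33.4 CPM in siATF6 and 16.98, 17.7 and 14.003 CPM in siControl cells. H4C14 was at 0.91 ± 0.23 (adjusted p = 0.0351), with 23.9, 21.1 and 24.9 CPM in siATF6 and 14.1, 11.4 and 13.4 CPM in siControl cells. Both sets were apart. The H4C14 call was lost without any 1 of the 6 libraries compared, with an adjusted p of up to 0.143, and 4 members were called without siATF4 0 mM replicate 3, which is in neither group. With the replicate number as a block H2BC15 also passed, at 0.73 (adjusted p = 0.0358). The summed H4C14 and H4C15 pair was at 0.81 ± 0.13 (adjusted p = 0.00204).

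With 25 mM glucose at 16 h edgeR called no member in siATF6 against siControl cells, 4 had an unadjusted p under 0.05, DESeq2 called 0, and 0.749% of all genes were called. H2AC6 was at 0.52 ± 0.18 (adjusted p = 0.254), with 18.3, 16.5 and 13.5 CPM in siATF6 and 13.7, 10.2 and 10.9 CPM in siControl cells. The effect of deprivation itself was tested for a difference between siRNAs, and edgeR and DESeq2 called no member for siATF4 or siATF6 against siControl. For siATF4 4 members and for siATF6 1 member had an unadjusted p under 0.05, and 0.172% and 0% of all genes were called. The differences in log2 fold change for H2AC6 were 0.18 ± 0.25 for siATF4 and 0.48 ± 0.25 for siATF6, with intervals of -0.31 to 0.67 and -0.00 to 0.97. For H4C8 they were -0.61 ± 0.33 and -0.08 ± 0.33, and for H4C15 1.19 ± 0.53 and 1.06 ± 0.53. A response that passed in 1 siRNA and not in another is thus not shown to differ.

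At 6 h no member was called for deprivation in any siRNA, and 0% of all 18355 genes tested were. Members with an unadjusted p under 0.05 numbered 3 in siATF4, 1 in siATF6 and 2 in siControl cells, and DESeq2 called no member. Without replicate 2, 1.82% of all genes were called in siATF6 and 3.92% in siControl cells, and 1 member passed, H4C14 in siControl cells. In siATF4 cells this fit leaves 1 library without glucose, assumed to vary like the other groups, and it called 1.17% of all genes and no member. H4C14 had 16.3, 9.32 and 12.9 CPM without against 6.54, 8.27 and 8.02 CPM with glucose in siControl cells, replicates 1 to 3. All 0 mM libraries were above all 25 mM libraries, and replicate 2 differed least. Its log2 fold change was 0.78 ± 0.26 with replicate 2 (adjusted p = 1) and 1.05 ± 0.20 without (adjusted p = 0.0277). The H4 sum was 31.3, 14.1 and 29.7 CPM without against 19.2, 19.1 and 20.2 CPM with glucose in siATF6 cells, and 22.9, 16.0 and 20.1 against 15.02, 17.9 and 13.7 CPM in siControl cells. In both siRNAs replicate 2 was lower and the other replicates were higher without glucose. H4C15 in siATF6 cells had 10.5, 2.94 and 12.9 CPM without against 2.41, 5.67 and 4.70 CPM with glucose, a log2 fold change of 1.79 ± 0.45 without replicate 2 (adjusted p = 0.0976). H3C6, H4C8 and H2AC6 stood between 0.02 and 0.70 in siATF6 and siControl cells without replicate 2 and did not pass.

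**Figure D5:**
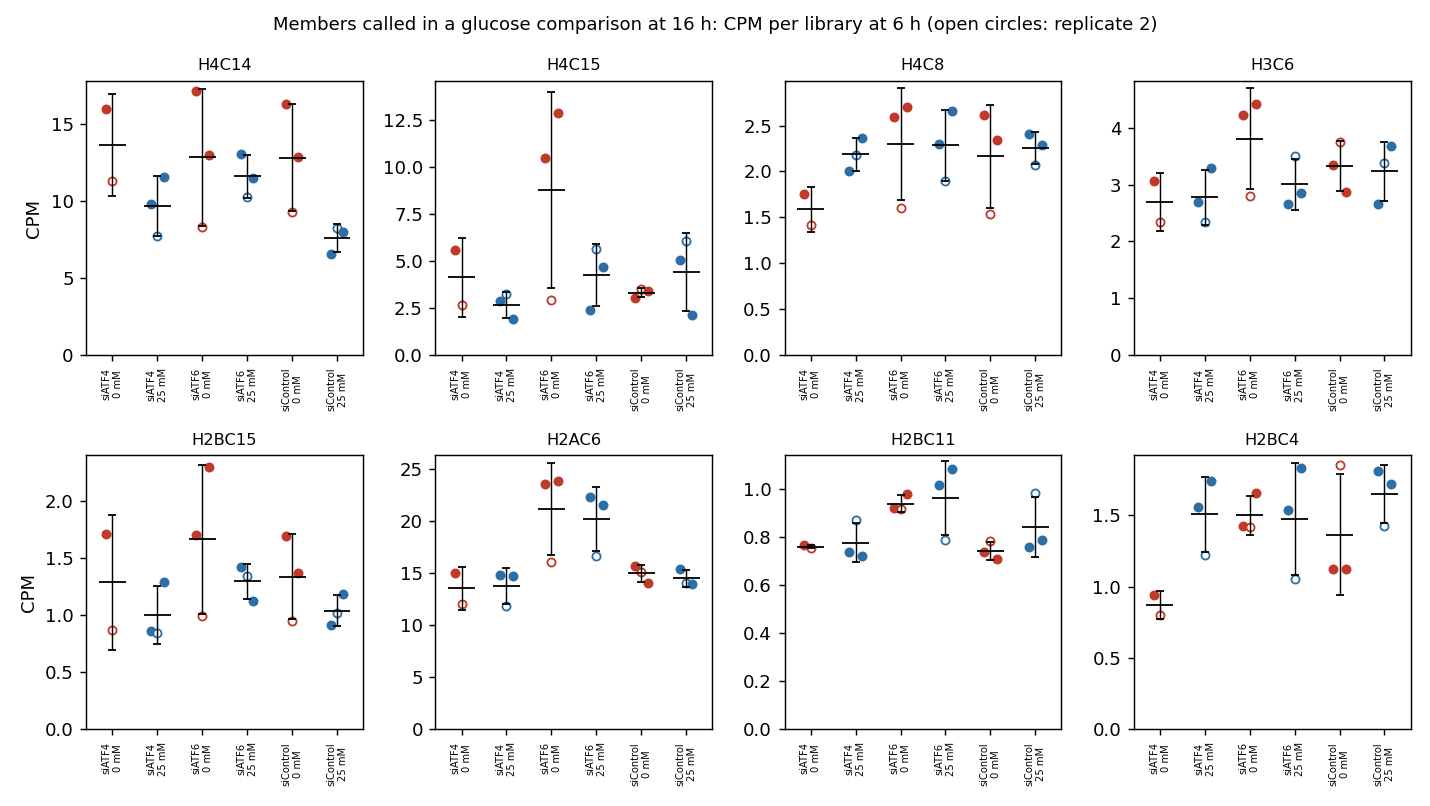
CPM of the same 8 members in each library at 6 h; red is 0 mM and blue 25 mM glucose, open circles are replicate 2, lines are means and bars 1 SD (n = 3, and n = 2 for siATF4 without glucose). In siATF6 cells without glucose the open circle is the lowest point for H4C14, H4C15, H4C8, H3C6, H2BC15 and H2AC6.

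H2AC6 was also higher in siATF6 cells at 6 h. It had 23.6, 16.0 and 23.8 CPM without and 22.3, 16.6 and 21.6 CPM with glucose in siATF6 cells, against 15.7, 15.1 and 14.1 CPM without and 15.4, 14.1 and 13.99 CPM with glucose in siControl cells. Each siATF6 library was above every siControl library. Over both glucose levels the log2 fold change was 0.52 ± 0.11 (adjusted p = 0.0147), the only member called, where 7.28% of all genes were (3.3% higher, 3.98% lower), and 0.64 ± 0.08 without replicate 2 (adjusted p = 0.0072, where 2.86% of all genes were called). With the replicate number as a block 3 members passed, H2AC6 at 0.51 ± 0.08 (adjusted p = 0.000693), H1-2 at 0.33 ± 0.10 (adjusted p = 0.0373) and H1-4 at 1.06 ± 0.34 (adjusted p = 0.044). In siATF4 against siControl cells at 6 h edgeR called no member, 4 had an unadjusted p under 0.05, DESeq2 called 0, and 0.191% of all genes were called. Without replicate 2, with 1 siATF4 library left without glucose, edgeR called no member, 2 had an unadjusted p under 0.05, and 0.106% of all genes were called.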

How the data were processed

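Per the labels, poly(A)-enriched, unstranded, paired libraries were sequenced; per the submitters' processing notes, the authors used fastp, STAR and RSEM with GRCh38. Their versions and the gene models counted are not stated in those notes. The deposited values are RSEM expected counts per gene, rounded here to whole numbers; gene length in the deposited table is in bases and is 1 value per gene. CPM was computed on plain totals. Against TMM scaling this shifts log2 differences for deprivation at 16 h by -0.21 (siATF4), -0.13 (siATF6) and -0.11 (siControl); fitted fold changes use TMM. The tests were edgeR 4.0.16 quasi-likelihood fits (R 4.3.3; filterByExpr, minimum count 10, minimum total 15; robust), with 1 mean per group and Benjamini-Hochberg adjustment over all genes at 0.05. The 18 libraries of 16 h and 17 of 6 h were fitted apart, for 14 comparisons. The script was tested on simulated data. Standard errors are the fold change over the root of F, and 95% intervals are normal ones from them.

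Members and gene lists were chosen with earlier results of these data known. Members were named if they were among the 2 most abundant of their class or among up to 6 called per direction in a comparison. Alternatives were RLE scaling, no filter, DESeq2 1.42.0, a replicate block and leaving out libraries. Whether the replicate number pairs samples was checked by the correlation of deviations from group means. Over all pairs of groups, 40 of 45 same-number pairs passed 0.1 at 16 h (median 0.301) and 36 of 40 at 6 h (median 0.387). Pairs of unlike number had medians of -0.263 and -0.206. All same-number pairs passed 0.1 for deprivation in siControl and siATF6 at 16 h and for siATF6 against siControl in 0 mM at 16 h and at 6 h. The main fits did not use this pairing. Members that passed with the block but not in the main fits are outside the main counts of called members. The replicates are biological per the labels, all of 1 cell line, so p-values measure the spread between cultures of that line. The result of 1 gene is not reported here.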

Additional observations from a re-analysis of the deposited data

How the results depend on the processing

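Called members kept their direction under each alternative run. RLE scaling changed no count of called members by over 1.5 times. For siATF4 against siControl in 0 mM at 16 h, 3 members were called, against 1 without the filter, 5 with DESeq2 and 7 with a replicate block; leaving out 1 library gave 0 to 4. The numbers did not pair those samples by the rule used. For siATF4 in 25 mM, DESeq2 called 1 with and 1 without independent filtering. For siATF6 in 0 mM, leaving out 1 library gave 1 to 4. For siATF6 at 6 h, 1 was called, against 3 with the replicate block, 3 with DESeq2, 0 with all 18 libraries and 1 to 2 leaving out 1 library. The block changed no other count by over 1.5 times. For deprivation in siControl at 6 h, leaving out replicate 2 gave 1. Detection gave 59 members at 1 count and 16 at 100 counts.

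Class sums depend on scaling and on the uncertain members. As log2 ratios for deprivation at 16 h with TMM-scaled totals, siControl gave -0.27 for H1 and 0.91 for H4, siATF4 0.39 for H2A, -0.10 for H2B, 0.39 for H3 and 1.35 for H4, and siATF6 0.075 for H2B; siATF4 against siControl in 0 mM gave -0.26 for H3 and 0.37 for H4. Without uncertain members, which include H4C14 and H4C15, deprivation at 16 h gave 0.38 for H2A, -0.35 for H2B, 0.55 for H3 and 0.95 for H4 in siControl, 0.43, -0.55, 0.33 and 0.13 in siATF4, and 0.84 for H2A, -0.24 for H2B and 0.82 for H4 in siATF6. The H4 ratio in siATF4 cells thus rested on the H4C14 and H4C15 copies. At 6 h H4 gave 0.048 in siControl and -0.43 in siATF4. For knockdown at 16 h H4 gave -0.77 (siATF4, 0 mM), 0.053 (siATF4, 25 mM), 0.21 (siATF6, 0 mM) and 0.34 (siATF6, 25 mM), and H2A 0.86 (siATF6, 0 mM) and 0.39 (siATF6, 25 mM). Leaving out 1 replicate gave, for deprivation in siATF4, -0.48 to -0.093 (H1, 6 h), -0.016 to 0.30 (H2A, 16 h), 0.084 to 0.22 (H3, 16 h) and 0.11 to 0.56 (H4, 6 h). It gave 1.17 to 1.41 for H4 in siATF6 at 16 h and 0.19 to 0.58 for H4 in siControl at 6 h. For knockdown in 0 mM it gave -0.25 to 0.092 for H2A in siATF4, and 0.55 to 0.85 for H2A, 0.030 to 0.35 for H2B and 0.51 to 0.72 for H4 in siATF6. H1 in siATF4 changed sign, at -0.72 to 0.15 for deprivation at 16 h and -0.12 to 0.47 against siControl in 0 mM, where replicates vary widely. The sign also changed for smaller ratios: H1 in siATF4 against siControl in 25 mM, H2A in siControl at both times, H1, H2A and H2B in siATF6 at 6 h, H2B in siATF6 at 16 h and against siControl in 25 mM, and H3 in siATF4 at 6 h.

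Depth limits the rarer members: those under about 10 counts were not tested, and a missing call there says nothing of the gene.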

Other observations

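H4C14 and H4C15 have the same 100 bases before the start, so the window printed for H4C14 is also that of H4C15. In the library of 2.87 M counts that was left out, the members took 439 CPM, with H4C8 at 42.9, H2BC15 at 44.99 and H2BC4 at 58.6 CPM and H4C14, H4C15, H3C6, H1-2 and H2BC12 at 0. H3C14 and H3C15 were given the same fitted change in each 16 h comparison.

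H1-4 was low, from 0.0731 to 0.627 CPM at 16 h, but stood higher in siATF4 than in siControl cells without glucose, with 0.303, 0.246 and 0.627 against 0.0974, 0.196 and 0.0731 CPM. Its edgeR log2 fold change was 1.82 ± 0.62 (adjusted p = 0.0622), and it passed with DESeq2 at 1.86 (adjusted p = 0.0352) and with a replicate block at 1.80 (adjusted p = 0.0314). H4C5 was at -1.62 ± 0.55 in the same comparison (adjusted p = 0.0627) and passed with the block (adjusted p = 0.0398). Both were chosen after their values were seen.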
